A study of Rattus norvegicus with 9 samples.

Results

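Peaks of MBD3 chromatin immunoprecipitation and sequencing (ChIP-seq) crowded into short stretches of rat chromosomes 1 and 13. The members are all list entries whose summit, the base with the highest tag pileup in a peak, lay on chromosome 1 between 187000001 and 189000000 or on chromosome 13 between 38000001 and 39000000. Both windows were chosen by the density of peaks in the lists of all 7 rats, so every comparison of a window with its surroundings describes that choice and carries no test. They held 2714 of the 246164 entries in the lists, 1987 of them on chromosome 1 and 727 on chromosome 13. This was 1.10% of the entries in 0.103% of the length that the lists span, 3 of 2902 Mb. The flanks, 5 Mb on each side, held 912 entries around the chromosome 1 window and 1056 around the chromosome 13 window.

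MBD3 is a core subunit of the nucleosome remodelling and deacetylase (NuRD) complex, which joins an ATP-dependent chromatin remodeller to histone deacetylases. Its methyl-CpG-binding domain resembles that of MBD2, but mammalian MBD3 binds methylated DNA only weakly and reaches chromatin largely through the rest of the complex. NuRD is found at promoters and enhancers, where it tunes transcription.

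The study compared MBD3 binding between rats with and without electrical stimulation of the amygdala, a model of focal epilepsy. All animals were male Sprague-Dawley rats with electrodes implanted in the left lateral amygdala, and the tissue pooled entorhinal, perirhinal and piriform cortex with the amygdala, so that no cell type can be assigned. The 3 sham-operated rats (sham 1 to 3) received no current. The 4 stimulated rats (stimulated 1 to 4) received 400 µA pulses for 20 min, which evokes status epilepticus, and then diazepam at 20 mg/kg to stop it, and all rats were killed on day 14. Numbers within a group follow the order of the records and pair no animals. Each list came from a separate rat. Each group had 1 input library, chromatin sequenced without precipitation, against which all of its lists were called.

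The libraries differed in depth along with the groups. After removal of duplicate tags the ChIP libraries held 3668143, 2718183 and 2436208 tags in the sham rats and 17960510, 7631096, 4812579 and 12357373 tags in the stimulated rats. Duplicates made up 78.3% of the ChIP tags of stimulated 3, against 9.10 to 39.1% in the other rats. The sham input held 5241067 tags and the stimulated input 33279049. Effects of stimulation, diazepam, ChIP depth and input library cannot be told apart in this design. The lists held 12269 to 32399 entries in the sham rats and 9500, 109947, 2754 and 65074 entries in stimulated 1 to 4. Stimulated 1 and 3 contributed few members, 17 and 53, and the group differences are also given without them. Sham 3, with 12269 entries, contributed 436. As a share of the list the 2 windows held 0.179% in stimulated 1, 1.92% in stimulated 3 and 3.55% in sham 3.

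The chromosome 1 window held 419, 387 and 323 entries in sham 1 to 3. Stimulated 2 and 4 held 436 and 368 there, as many as the sham rats, while stimulated 1 held 11 and stimulated 3 held 43. In entries per Mb this was 210, 194 and 162 in the sham rats against 12.1, 6.10 and 4.60 in their flanks. Stimulated 2 and 4 had 218 and 184 entries per Mb against 38.7 and 25.3 in the flanks. Stimulated 3 kept the contrast at a low level, with 21.5 against 0.800 per Mb. Stimulated 1 had 5.50 entries per Mb in the window and 3.60 in the flanks, so its list showed no comparable crowding.

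The chromosome 13 window gave the same picture on a smaller scale. It held 143, 145 and 113 entries in the sham rats and 6, 165, 10 and 145 in stimulated 1 to 4, each within 1 Mb. The flanks held 13.6, 7 and 5.20 entries per Mb in the sham rats and 2.00, 51.7, 0.800 and 25.3 in the stimulated rats. Counted in 1 Mb bins over all lists together, the window took rank 3, behind the 2 bins of the chromosome 1 window. The bin at rank 4, on chromosome 17 from 59000001 to 60000000, held 383 entries against 727.

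**Figure D1:**
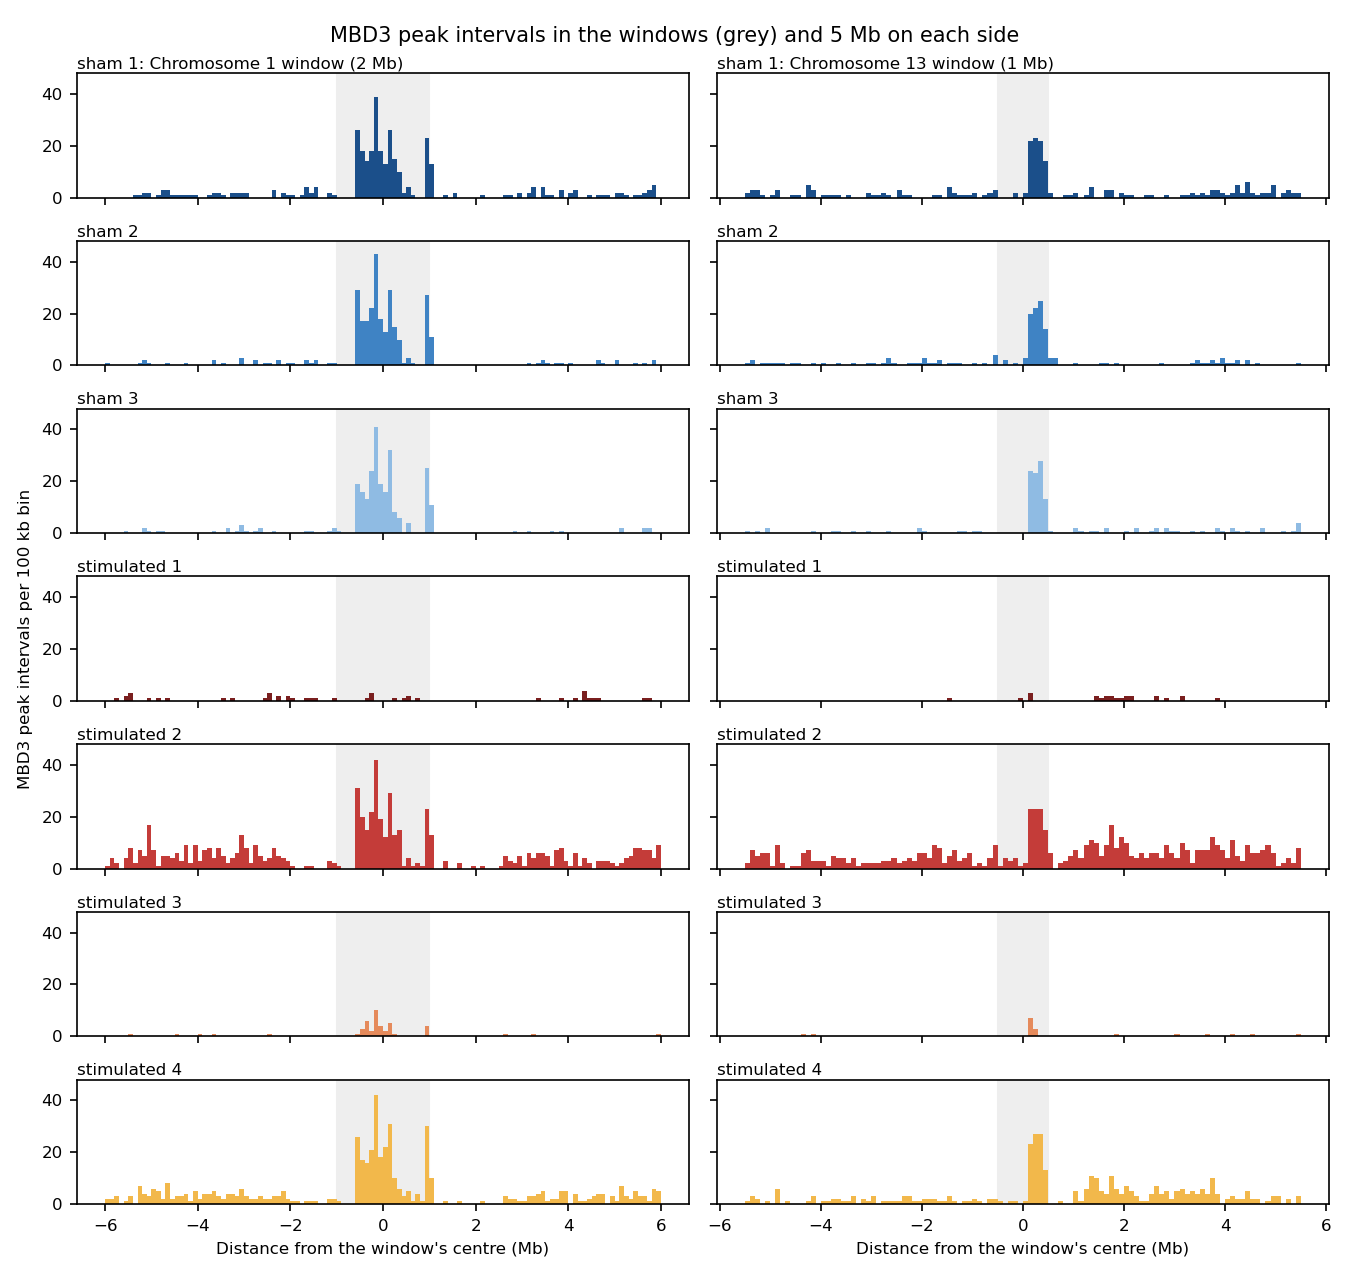
Peak intervals (y axis, number per 100 kb bin) against distance from the centre of each window (x axis, Mb), 1 row per rat, with the windows shaded grey. In sham 1 to 3 and stimulated 2 and 4 tall bars rise and end abruptly at both clusters, the chromosome 1 cluster has a second short run at the window's right edge, and stimulated 1 has no such block.

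Across all lists together the crowding had abrupt borders, although single lists did not all give unbroken runs. A run was called dense where each 100 kb bin held at least 5 times the mean number of distinct intervals per flank bin, over all lists together. On chromosome 1 this gave a core from 187400001 to 188400000 with 1070 intervals, or 107 per 100 kb against 8.90 in the flank bins. On chromosome 13 it gave a single core from 38600001 to 39000000 with 437 intervals against 10.5 per flank bin. The dense runs took up 1000 and 100 kb of the chromosome 1 window and 400 kb of the chromosome 13 window. The sparse 0.9 Mb of the chromosome 1 window held 0 to 16 entries per rat.

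The same rule applied to each list, against its own flanks, gave the full cores in all 3 sham rats. Stimulated 4 gave the full core on chromosome 13 and a core that ended at 188200000 on chromosome 1. Stimulated 2, whose flanks held the most intervals, broke into runs of 200, 200 and 100 kb within the chromosome 1 core and had no dense run on chromosome 13.

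The outermost intervals inside the cores lay close together in the fuller lists. The first interval of the chromosome 1 core began at 187444593, 187444597 and 187444894 in sham 1 to 3. It began at 187443990 in stimulated 2 and at 187444603 in stimulated 4. These 5 starts lay within 1 kb of each other. In each list the tallest summit of this first interval lay 421 to 527 kb past that of the preceding interval. The tallest summit of the core's last interval lay at 188353858, 188353389 and 188353405 in the sham rats. In stimulated 2 and 4 it lay at 188353800 and 188353380. Peaks of the core thus spanned 909 to 910 kb in each of the 5 lists. Stimulated 3 spanned 803 kb inside the same borders and stimulated 1 spanned 608 kb.

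A second run on chromosome 1 filled the bin from 188900001 to 189000000 with 132 intervals and was cut by the window. Followed past the window border, it ran to 189100000 and held 190 intervals. In sham 1 to 3 its first interval began at 188913874, 188913870 and 188913961. The tallest summit of its last interval lay at 189042800, 189042774 and 189042843. Stimulated 2 gave 188913779 and 189042800, and stimulated 4 gave 188902401 and 189042779. The run therefore spanned 129 kb in the sham rats and stimulated 2 and 141 kb in stimulated 4. It held no interval in stimulated 1 and 4 in stimulated 3.

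The chromosome 13 core began at 38608625, 38608626 and 38608626 in sham 1 to 3, at 38608571 in stimulated 2 and at 38608624 in stimulated 4. Its last summit lay at 38962396, 38962588 and 38962009 in the sham rats. Stimulated 2 and 4 had later last summits, at 38986446 and 38994640, and both were small peaks whose local background sat at the genome-wide rate. Stimulated 3 and stimulated 1 reached only 38732118 and 38667118.

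The entries next to the window borders show where the rule fell. At the right border of the chromosome 1 window, inside the second run, sham 1 had its last entry inside 14.0 kb before the border, with a pileup of 16. Its next entry outside lay 8.43 kb past the border, with a pileup of 42. The same neighbours in stimulated 2 lay 14.0 kb before and 8.43 kb past the border, with pileups of 33 and 67. At the left border of that window the nearest entries of sham 1 were 81.5 kb outside and 445 kb inside. Around the other window the nearest entries of sham 1 were 48.8 kb before the left border and 306 kb after it, and 37.6 kb before the right border and 62.9 kb past it. Only the right border on chromosome 1 cut through a cluster.

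Within the windows neighbouring summits were less than 1 kb apart in most cases. On chromosome 1 the median distance between neighbouring summits was 491.5, 585 and 666 bp in sham 1 to 3 and 544 and 584 bp in stimulated 2 and 4. In the flanks the medians were 40823, 54851 and 30610 bp in the sham rats and 11415 and 20495 bp in stimulated 2 and 4. Within the window stimulated 1 and 3 were looser, with medians of 46138 and 14123 bp. Distances under 1 kb made up 59.1 to 64.8% of all distances in the 5 fuller lists, against 4.78 to 14.3% in their flanks. The chromosome 13 window had medians of 536.5, 511.5 and 677 bp in the sham rats and of 552.5 and 568.5 bp in stimulated 2 and 4. The shortest stretch that held 50% of a list's summits was 386 to 437 kb long on chromosome 1 and 124 to 178 kb long on chromosome 13 in these lists.

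The peaks themselves were wider than those around them and often carried several summits. The median width of distinct intervals in the chromosome 1 window was 505, 412 and 346.5 bp in the sham rats and 188, 451, 245 and 374.5 bp in stimulated 1 to 4. The flank medians lay between 150 and 178.5 bp, close to the 150 bp to which every tag was extended. In the 5 fuller lists 32.6 to 44.9% of the intervals in the window had more than 1 summit, against 1.04 to 7.14% in the flanks. Peak intervals covered 7.09, 6.54 and 4.80% of the chromosome 1 window in sham 1 to 3 and 7.34 and 5.70% in stimulated 2 and 4. Median widths on chromosome 13 were 460, 414 and 281 bp in the sham rats and 227.5, 395, 260.5 and 334.5 bp in the stimulated rats.

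The clusters were shared between rats to an extent not seen around them. Overlapping entries of all lists were merged into regions, 253 in the chromosome 1 window and 105 in the chromosome 13 window. In the chromosome 1 window 154 regions (60.9%) had a peak in at least 5 of the 7 rats, against 0.764% of the 176203 regions of all chromosomes. In its flanks 14 of 624 regions (2.24%) were found in at least 5 rats, and 9 of those 14 lay in the continuation of the second run. In the chromosome 13 window 60 regions (57.1%) were found in at least 5 rats, and none of the 792 flank regions. Together the 2 windows held 214 of the 1346 regions of the genome with peaks in at least 5 rats, or 15.9%. These shares also describe the choice of the windows and were not tested.

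All 214 of these regions had a peak in all 3 sham rats and in stimulated 2 and 4. So did 1313 of the 1346 regions of the genome with peaks in at least 5 rats, so this make-up is not particular to the windows. Regions in 1 rat alone made up 15.4% of the chromosome 1 window and 24.8% of the chromosome 13 window, against 73.7% of all regions. None of the 253 and none of the 105 regions was found in all 3 sham rats and in no stimulated rat, a pattern seen in 0.0272% of all regions. None was found in all 4 stimulated rats and in no sham rat, a pattern seen in 0.00341%. In sets of this size a count of 0 is close to these shares. Only 4 regions on chromosome 1 (1.58%) and 2 on chromosome 13 (1.90%) were found in stimulated 2 and 4 without any sham rat, against 11.1 and 10.7% of the regions in the flanks.

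**Figure D2:**
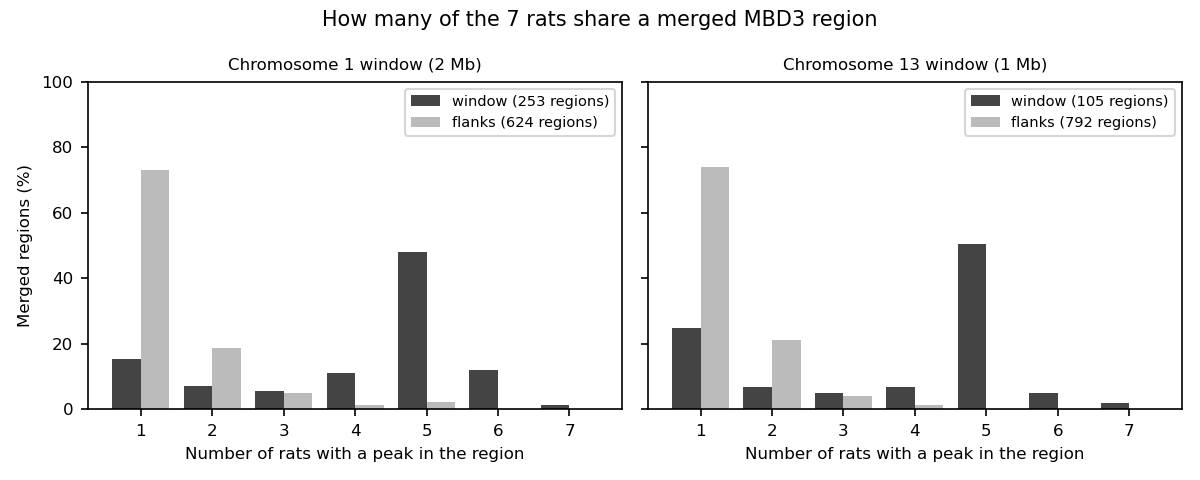
Share of merged regions (y axis, %) by the number of rats with a peak in the region (x axis), for the windows (dark bars) and their flanks (light bars). In both windows the tallest bar stands at 5 rats, the 3 sham rats with stimulated 2 and 4, and in the flanks it stands at 1 rat.

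Pairs of lists overlapped about equally within and between the groups once the 2 short lists were set aside. Between sham rats 77.1 to 98.7% of the intervals of one list in the chromosome 1 window overlapped an interval of the other, with a median of 92.1%. Between a sham rat and stimulated 2 or 4 the share was 71.7 to 98.7%, with a median of 90.1%. In the flanks the medians were 37.7% between sham rats and 29.3% between groups. The medians for the chromosome 13 window were 90.1% and 88.3%, against 8.38% and 16.1% in the flanks. Summits lay close together as well. The median distance from a summit to the nearest summit of another of these 5 lists was 18 to 42 bp on chromosome 1 and 16 to 34 bp on chromosome 13.

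The list of stimulated 3 held the taller sites of the same clusters, which also had the higher background. All 33 chromosome 1 regions in the list of stimulated 3, and all 8 on chromosome 13, were also in the list of stimulated 2. In stimulated 2 these 33 regions had a median pileup of 105 tags, against 35 in its other 193 regions of the window. The corresponding medians on chromosome 13 were 109 and 39 tags. Median local background, in multiples of the genome-wide rate defined below, was 38.6 at the 33 regions and 12.4 at the others. On chromosome 13 it was 36.3 and 12.7. The list of stimulated 1 overlapped the clusters less. Of its 8 chromosome 1 regions, 4 were also in stimulated 2, with a median pileup there of 116, and 4 had no peak in any sham rat. Of its 11 entries in that window, 4 lay in the sparse part.

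Pileup, the number of extended tags over the summit, was several times higher in the windows than around them. Its median in the chromosome 1 window was 29, 27 and 20 tags in sham 1 to 3 and 62, 43, 34 and 46.5 tags in stimulated 1 to 4. In the flanks the medians were 6, 6 and 7 tags in the sham rats and 10, 8, 5 and 9 tags in the stimulated rats. Every list had a higher median inside than outside. Medians in the chromosome 13 window were 28, 23 and 17 tags in the sham rats and 76, 42, 44 and 40 tags in the stimulated rats, over flank medians of 5 to 9 tags.

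Local background rose with pileup. It is the tag number expected at the summit from the input library, scaled to the depth of the ChIP library and taken as the highest of several window sizes around it, and was recovered from the deposited values as (pileup + 1) / fold enrichment − 1. Its median in the chromosome 1 window was 3.50, 2.72 and 3.25 tags in sham 1 to 3 and 32.4, 9.14, 13.02 and 16.3 tags in stimulated 1 to 4. Because this scales with depth, it was also divided by the genome-wide rate of each list, the lowest background the caller allows. This rate was 0.294, 0.218 and 0.195 tags in the sham rats and 1.44, 0.612, 0.386 and 0.991 tags in the stimulated rats. The relative background had a median of 11.9, 12.5 and 16.7 in sham 1 to 3 and of 22.5, 14.9, 33.7 and 16.5 in stimulated 1 to 4. In the flanks it was 1.00 to 1.90 in all 7 lists.

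The input was thus enriched in both clusters along with the ChIP libraries. On chromosome 13 the relative background had a median of 11.9, 11.9 and 14.3 in the sham rats and of 32.4, 14.2, 34.3 and 14.6 in the stimulated rats. At most 9.09% of the entries of any list in the chromosome 1 window had a background at the genome-wide rate, against 21.7 to 55.3% in the flanks. In the sparse part of the chromosome 1 window the median relative background was 1.00 in each sham rat and 1.59, 1.87 and 1.50 in stimulated 1, 2 and 4. The raised background followed the dense runs and not the whole window. Across the entries of a list in the chromosome 1 window pileup and background had a Spearman rho of 0.819 to 0.991 over 11 to 436 entries. Neighbouring entries share tags, and both values share the summit's place, so these rho values are descriptions.

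**Figure D3:**
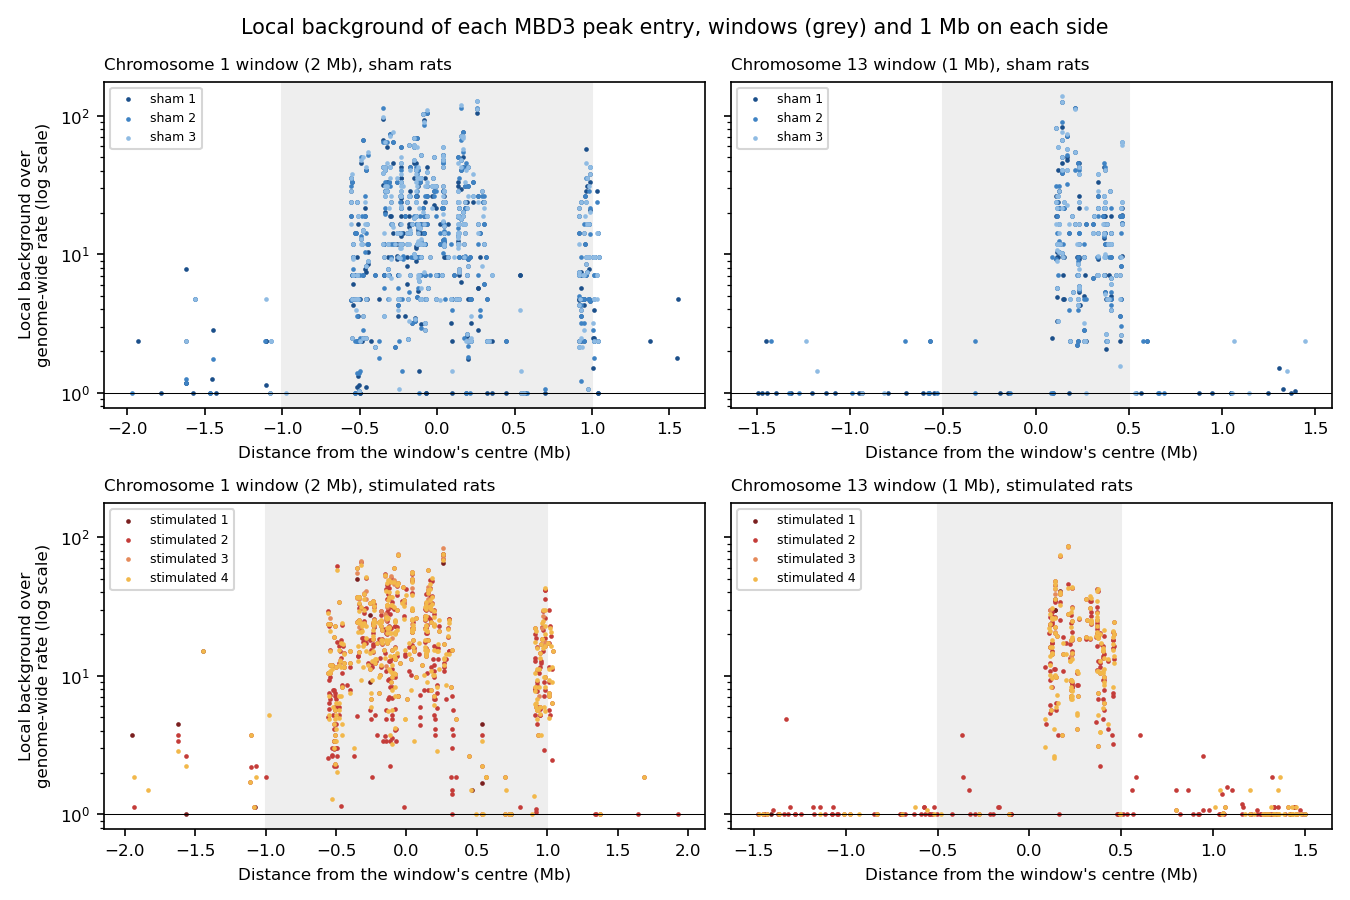
Local background divided by the genome-wide rate (y axis, log scale, no unit) against distance from the centre of each window (x axis, Mb), 1 point per entry, sham rats above and stimulated rats below, with the windows shaded grey. Points leave the line at 1 in the dense runs of both groups, and the sham values fall on steps because 1 input tag alone is worth 2.38 on this scale.

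The depth of the input sets how finely the background is known. In the sham input 1 tag over a summit equals a relative background of 2.38, and in the stimulated input 0.375. The median background in the chromosome 1 window rested on the equivalent of 5, 5.25 and 7 input tags in sham 1 to 3 and of 60.0, 39.9, 90.0 and 44.0 input tags in stimulated 1 to 4. The highest values rested on 47.0 to 54.0 sham input tags and on 201 to 222 stimulated input tags. Differences in fold enrichment between the groups at a single site therefore include a counting error that is larger in the sham rats. The lists of a group share 1 input library, so its errors are common to all lists of that group.

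Fold enrichment, the ratio of pileup to local background after 1 is added to each, was lower in the windows than in the flanks in all 4 stimulated rats and in sham 3, and higher in sham 1 and 2. Its median in the chromosome 1 window was 6.05, 6.29 and 4.96 in sham 1 to 3, over flank medians of 4.71, 4.93 and 5.65. In stimulated 1 to 4 the window medians were 1.95, 4.27, 2.54 and 2.81, over flank medians of 4.11, 5.23, 3.90 and 4.73. On chromosome 13 the window medians were 6.07, 6.02 and 4.75 in the sham rats and 1.61, 4.27, 3.07 and 2.71 in the stimulated rats, with the same signs against the flanks. A fold enrichment of at least 4 was reached by 83.3, 89.4 and 72.4% of the chromosome 1 entries in the sham rats and by 18.2, 59.9, 4.65 and 10.1% in the stimulated rats. In the flanks the shares were 79.3, 78.7 and 84.8% in the sham rats and 83.3, 87.6, 50.0 and 76.7% in the stimulated rats. Sham 1 thus lay near its flank share, sham 2 above it, and sham 3 and every stimulated rat below it.

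**Figure D4:**
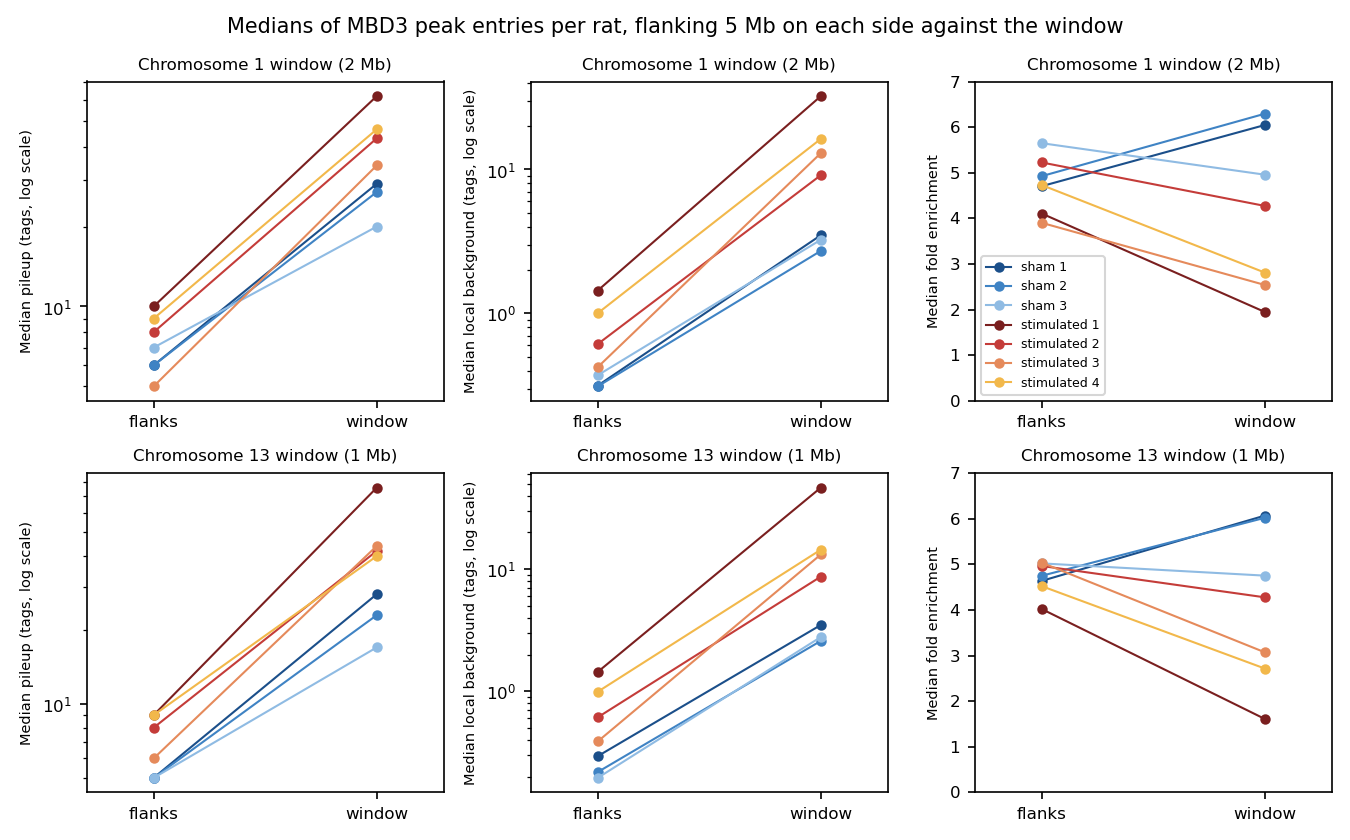
Median pileup (tags, log scale), median local background (tags, log scale) and median fold enrichment (ratio) of each rat's entries, in the flanks and in the window, for chromosome 1 (top) and chromosome 13 (bottom). Pileup and background rise from flanks to window in all 7 rats, and fold enrichment falls in sham 3 and in all 4 stimulated rats.

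The group comparisons took 1 value per rat, the log2 ratio of window median to flank median or the share of the list in the window, and p-values were adjusted over 8 comparisons. With 3 and 4 rats the exact two-sided permutation test cannot give a p below 0.0571, so none could pass 0.05. The log2 ratio of fold enrichment on chromosome 1 was 0.36, 0.35 and −0.19 in sham 1 to 3 and −1.08, −0.29, −0.62 and −0.75 in stimulated 1 to 4. The mean was 0.18 ± 0.32 (SD, n = 3) in the sham rats and −0.68 ± 0.33 (SD, n = 4) in the stimulated rats. The groups did not overlap, with p = 0.0571 in the exact permutation test and 0.0914 after Benjamini-Hochberg adjustment. On chromosome 13 the means were 0.22 ± 0.26 (SD, n = 3) and −0.75 ± 0.45 (SD, n = 4), also without overlap and with the same p of 0.0571 (exact permutation test, adjusted 0.0914). Among entries of at least 4-fold enrichment the differences of −0.86 and −0.96 shrank to −0.22 on chromosome 1, where the groups then overlapped, and to −0.42 on chromosome 13.

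The log2 ratio of background, window over flanks, was 3.24 ± 0.20 (SD, n = 3) in the sham rats and 4.34 ± 0.48 (SD, n = 4) in the stimulated rats on chromosome 1. These values did not overlap, with an exact permutation p of 0.0571 (adjusted 0.0914). On chromosome 13 they were 3.66 ± 0.15 (SD, n = 3) and 4.45 ± 0.70 (SD, n = 4), with overlap and an exact permutation p of 0.114 (adjusted 0.131). All lists of a group take their background from 1 input library. These SDs and p-values therefore do not measure the spread between input libraries, and the rats are not independent readings of background. The same limit applies to the fold enrichment ratios above, which have this background in the denominator. The log2 ratio of pileup was higher by 0.56 in the stimulated rats on chromosome 1, without overlap (exact permutation p = 0.0571, adjusted 0.0914). It was higher by 0.47 on chromosome 13 (exact permutation p = 0.286, adjusted 0.286). The chromosome 1 groups overlapped in background and in pileup with a −log10 q of at least 3, with distinct intervals and with the other autosomes as reference. The differences with the other autosomes were 0.64 in background and 0.29 in pileup. The chromosome 1 flanks include the continuation of the second run, from 189000001 to 189100000. It held 13 of 116, 11 of 56 and 11 of 44 flank intervals in sham 1 to 3. In stimulated 1 to 4 it held 0 of 36, 13 of 383, 0 of 8 and 10 of 247. With flanks of 2 Mb the mean log2 background ratio was 2.17 in the sham rats and 4.27 in the stimulated rats, without overlap. Flanks without this continuation were not tested.

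The windows took up a larger part of the sham lists than of most stimulated lists. Since the windows were chosen by the number of entries in these lists, the shares are given as a description, with no test. The chromosome 1 window held 1.29, 2.72 and 2.63% of the entries of sham 1 to 3 and 0.116, 0.397, 1.56 and 0.566% of those of stimulated 1 to 4. Stimulated 3, whose whole list was the shortest, lay above sham 1. The chromosome 13 window held 0.441, 1.02 and 0.921% in the sham rats and 0.0632, 0.150, 0.363 and 0.223% in the stimulated rats, without overlap.

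A share depends on how many entries a list has elsewhere. Cut to the 2754 entries with the highest −log10 p in each list, the sham rats held a mean of 9.86% on chromosome 1 and 3.56% on chromosome 13, and the stimulated rats 3.76% and 1.20%. Over the whole lists the sham and stimulated means were 2.22% and 0.660% on chromosome 1 and 0.794% and 0.200% on chromosome 13. The cut raised the means of both groups, so differences in percentage points cannot be compared between the 2 settings. At equal list length the groups overlapped on both chromosomes. They also overlapped on chromosome 13 with distinct intervals and with a −log10 q of at least 3.

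Without sham 3 the difference in the pileup ratio was 0.33 on chromosome 1 and 0.28 on chromosome 13. Without stimulated 1 and 3 the difference in the fold enrichment ratio was −0.70 on chromosome 1 and −0.69 on chromosome 13, each with non-overlapping groups. The smallest exact permutation p for 3 against 2 rats is 0.200. The difference in the background ratio was 0.72 on chromosome 1, without overlap, and 0.19 on chromosome 13, with overlap. The difference in the pileup ratio was 0.41 on chromosome 1, without overlap, and 0.12 on chromosome 13, with overlap. In share of the list it was −1.73 and −0.608 percentage points, without overlap on either chromosome. The background differences on both chromosomes and the pileup difference on chromosome 13 were thus smaller by more than 1.5 times without these lists, and the fold enrichment differences kept their direction.

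The 154 and 60 regions with peaks in all 3 sham rats and in stimulated 2 and 4 allowed the same sites to be set side by side. On chromosome 1 their median relative background was 19.0, 17.8 and 19.0 in the sham rats and 22.5 and 21.2 in stimulated 2 and 4. Their median fold enrichment was 6.45, 6.96 and 5.11 in the sham rats and 4.56 and 2.77 in stimulated 2 and 4. At the 60 regions of chromosome 13 relative background was 15.5, 15.5 and 14.3 in the sham rats and 19.1 and 18.9 in stimulated 2 and 4, and the fold enrichment was 6.42, 6.82 and 4.93 against 4.25 and 2.71. At these shared sites the 3 sham rats lay above the 2 stimulated rats in fold enrichment on both chromosomes. Adding 1 to both terms draws the ratio towards 1 more strongly in shallow libraries. The lists also differed in the lowest fold enrichment they held. Over all entries of the chromosome 1 window it was 2.01 to 2.42 in the sham rats and 1.64 in stimulated 4. Stimulated 2 lay within the sham range. The part of depth in the fold enrichment of the shared sites was not tested, in either direction.

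How well lists ranked the same sites depended on the quantity. For summits within 50 bp of each other in 2 lists, pileup had a Spearman rho of 0.900 to 0.961 on chromosome 1 between lists called against the same input, and of 0.864 to 0.944 between lists with different inputs. Relative background had a rho of 0.967 to 0.980 with the same input and of 0.795 to 0.852 with different inputs. Fold enrichment had a rho of 0.543 to 0.718 with the same input and of 0.126 to 0.174 with different inputs. On chromosome 13 the rho of fold enrichment was 0.525 to 0.719 with the same input and −0.09 to 0.13 with different inputs. The order of sites by pileup was thus nearly common to all 5 lists, and their order by fold enrichment was shared mainly between lists with a common input. These rho values, over 84 to 311 site pairs per comparison, describe sites that share libraries and carry no test. Input and group coincide here and cannot be told apart.

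Single regions did not all follow the medians. For each list the values below are those of its tallest summit in the region. The region with the tallest pileup within the chromosome 1 window in 6 of the 7 rats lay at chr1:188256182-188256869. It had a peak in all 7 rats. Its pileup was 175, 165 and 128 tags in sham 1 to 3 and 165, 215, 67 and 215 tags in stimulated 1 to 4, where the settings of the caller allow at most 300. Its relative background was 112, 114 and 112 in the sham rats and 75.3, 70.1, 83.2 and 75.7 in the stimulated rats. Its fold enrichment was 5.19, 6.41 and 5.65 in the sham rats and 1.52, 4.92, 2.05 and 2.84 in the stimulated rats. The deepest library, stimulated 1, had the lowest fold enrichment of the 7 in this region. The relative background was higher in the sham rats here, whereas the medians over the window and over the shared regions were lower in the sham rats than in stimulated 2 and 4 except for the window median of sham 3.

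The other regions of the chromosome 1 window found in all 7 rats were chr1:187765224-187766833 and chr1:187647852-187649437. At the second of these pileup was 117, 105 and 71 tags in the sham rats and 118, 146, 67 and 140 tags in the stimulated rats. Its relative background was 95.1, 114 and 97.5 in the sham rats and 50.2, 59.9, 55.4 and 59.9 in the stimulated rats. The sham rats again had the higher values, and both groups showed a background far above the genome-wide rate. In the second run, chr1:188944811-188946482 had a lower relative background of 14.3, 16.7 and 14.3 in the sham rats and of 11.6, 7.12 and 13.5 in stimulated 2, 3 and 4. Its fold enrichment was 11.2, 8.42 and 6.60 in the sham rats and 7.15, 3.74 and 3.55 in stimulated 2, 3 and 4, and stimulated 1 had no peak.

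In the chromosome 13 window the regions found in all 7 rats were chr13:38637810-38640547 and chr13:38666819-38668545. The first is 2738 bp wide and held 7, 7 and 6 entries in the sham rats and 4, 8, 3 and 7 in the stimulated rats. At the second, pileup was 139, 107 and 88 tags in the sham rats and 87, 161, 51 and 152 tags in the stimulated rats, and fold enrichment was 6.36, 6.52 and 5.78 against 1.47, 3.53, 1.79 and 2.04. Its relative background was 71.4 to 73.7 in the sham rats and 72.7 to 74.5 in stimulated 2 to 4. The only summit of stimulated 1 in the region, at 38667118, lay apart from those of the other 6 lists, at 38668321 to 38668344, so its values there are from another place. Among the other 6 lists the relative backgrounds from the 2 inputs were close, and the fold enrichment of all 3 sham rats was above that of stimulated 2 to 4.

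The tallest pileup within the chromosome 13 window in 5 of the 7 rats was at chr13:38709322-38710352. It reached 161, 117 and 87 tags in the sham rats and 204, 62 and 197 tags in stimulated 2 to 4. By contrast, chr13:38615493-38615924 had a low background, 3.28 times the genome-wide rate in each sham rat and 5.62 times in stimulated 2 and 4. Its fold enrichment of 12.2, 11.1 and 6.70 in the sham rats and 7.21 and 4.87 in stimulated 2 and 4 was above the window median of each of these lists. The clusters therefore held peaks over modest background as well as over strong background.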

How the data were processed

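ChIP-seq peak lists of 7 rats (3 sham-operated, 4 stimulated) were used, grouped by the treatment label. Tools listed in the submitters' processing notes are MACS2 2.1.0.20141030, Bowtie 1.0.0 and cutadapt 1.7.1. Per the file headers, peaks were called per rat against the input library of its group, with 50 bp tags extended to 150 bp, 1 tag kept per position, sub-summits reported, a q threshold of 0.1 and a genome size of 1.87 Gb. No source used here gives the genome build, so positions are those of the lists, counted from 1, and no gene or sequence was assigned.

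The deposited pileup is a signal in tags. Fold enrichment as deposited is the ratio (pileup + 1) / (local background + 1). The authors' peak caller also gave the −log10 of the q-value and of the p-value of each entry. Background was computed as in the text. The genome-wide rate is filtered tags times 150 bp over 1.87 Gb, and it matched the lowest background of each list. Entries count summits, and intervals count distinct start and end pairs. Regions merge entries that share at least 1 bp.

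Group comparisons used exact two-sided permutation tests over the 35 ways to draw 3 of 7 rats, doubling the smaller tail, with Benjamini-Hochberg adjustment over 8 tests. The 2 tests of shares of a list are in that number, but shares are given as values only. The named regions were up to 8 per window, those in the most rats, with ties ranked by lowest fold enrichment. The tallest region of each list within each window, the ends of each core and the entries at the borders were added. The members, windows and lists were chosen with earlier results of these data known. The test script was checked on simulated data. Alternatives were entries with −log10 q of at least 3 or fold enrichment of at least 4, distinct intervals, lists cut to equal length, log2 of the share, flanks of 2 Mb, other autosomes as reference, means of log2 values, bins of 50 kb, 10 times the flank mean, summits within 100 bp, and leaving out each rat. Python 3.11.15, pandas 2.3.3, NumPy 2.4.6 and matplotlib 3.10.9 were used.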

Additional observations from a re-analysis of the deposited data

How the results depend on the processing

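Of 148 alternative values, 4 turned direction and 14 counts or lengths moved by more than 1.5 times. The design cannot give a p below 0.0571 with all rats, so the p-values of the alternatives say nothing about stability. With only entries of at least 4-fold enrichment, the difference in the background ratio (stimulated minus sham, log2) turned to −0.66 on chromosome 1 and −0.91 on chromosome 13. The difference in the pileup ratio turned to −0.28 and −0.49. This filter keeps few entries of stimulated 1, 3 and 4. The chromosome 1 core of 1000 kb shortened to 400 kb with bins of 50 kb and to 300 kb at 10 times the flank mean, and lay between 900 and 1000 kb without each rat in turn. Counting summits within 100 bp in place of merged regions, 250 sites on chromosome 1 and 99 on chromosome 13 were found in at least 5 rats, against 154 and 60. Without sham 1, 2 or 3, or stimulated 2 or 4, these counts fell to 33 and 7, and without stimulated 1 or 3 they were 154 and 60, since the shared regions rest on 5 lists. Leaving out stimulated 1 and 3 together, and following runs past the window border, were chosen after seeing the data. No paired analysis was possible because the replicate numbers follow record order and pair no animals. Pileups count 1 tag per position and are limited by library depth, and the backgrounds of the sham rats rest on few input tags.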

Other observations

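The 1 Mb bins that followed the windows in the number of entries over all lists had lower backgrounds. On chromosome 17 from 59000001 to 60000000 the lists held 89, 66 and 46 entries in sham 1 to 3 and 20, 101, 1 and 60 in stimulated 1 to 4. The median relative background there was 2.50, 4.76 and 3.21 in the sham rats and 4.50 and 4.65 in stimulated 2 and 4. On chromosome 7 from 22000001 to 23000000 they held 57, 50 and 35 entries in the sham rats and 7, 72, 2 and 47 in the stimulated rats. The bin ranked first in the list of stimulated 1 was another one, on chromosome 1 from 56000001 to 57000000, with 65 entries there against 25, 18 and 14 in the sham rats.

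The 2 chromosome 1 bins and the chromosome 13 bin took ranks 1, 2 and 3 in each of the other 6 lists. In stimulated 1 they took ranks 725, 379 and 465.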
